A study of Mus musculus with 64 samples.

Results

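Transposon insertions in 30 PB tumours were compared, gene by gene, with those in 12 PB tails. The 42 samples were taken by their labels from a series of 64: the samples of genotype IMPB whose tissue was not tail made up the tumours, and the IMPB tails were the control tissue. Each sample came from a mouse with a name of its own, so that the groups were not paired. All of these mice carried a constitutive PiggyBac (PB) transposase, knocked into Rosa26, and an array of ITP transposons, on a mixed C57BL/6, 129Sv and FVB background. The study describes a Blm m3 allele for its Sleeping Beauty (SB) mice, and the labels of the PB samples give only IMPB. The tumours were diffuse large B-cell lymphomas taken from mesenteric masses or nodes (15 tumours), spleen (6 tumours) and other lymph nodes or masses (9 tumours). A tail holds skin, bone and nerve rather than B cells, so tumour and tissue of origin cannot be told apart in any difference given here.

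A PB transposase cuts transposon copies out of a donor array and inserts them at TTAA motifs. A loss-of-function transposon carries splice acceptors and polyadenylation signals that can end the transcript of a gene in which it lands. In a tumour that has grown out from 1 cell, insertions of that cell are shared by its descendants, whereas later insertions are present in fewer cells and give fewer reads. Diffuse large B-cell lymphoma arises from mature B cells, in which transcription factors such as Ebf1 and Ikzf1, the B-cell receptor and its kinases, death receptor Fas and the homing signal through Gna13 control development, activation, survival and position in the lymph node.

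Reads at 1 position of a sample were counted as a single insertion. The sex chromosomes were left out, and so was chromosome 14, which had the highest insertion density of the autosomes and was taken as the donor chromosome. On the other chromosomes the tumours had 5230 ± 2526 insertions (SD, n = 30; 757 to 10800) and the tails 4010 ± 1926 (SD, n = 12; 2035 to 7362). Rates are given below as insertions per 1000 such insertions of the same sample. The median insertion of a tumour carried 11.3 ± 10.2 reads (SD, n = 30) and that of a tail 32.0 ± 12.5 (SD, n = 12). Sample names were written in a joined form (22 tumours, 5 tails) or a separated form (8 tumours, 7 tails), which may mark batches. Insertions inside genes made up 57.4 ± 2.16% of a tumour (SD, n = 30; 53.5 to 61.0%) and 53.5 ± 1.46% of a tail (SD, n = 12; 52.0 to 56.3%), a difference of 3.88 percentage points (two-sided permutation test with 100000 resamples, p = 2e-05, the lowest value possible). Within the joined names the difference was 4.21 points (two-sided exact permutation test, p = 0.0004) and within the separated names 2.33 points (two-sided exact permutation test, p = 0.014).

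Some TTAA motifs were hit in several mice, and a selection from the genes described below is shown first, chosen among motifs of at least 4 samples for genes on which the results turn. Further motifs of 4 tumours lay in Ikzf3, Pou2f2, Slamf6 and Ebf1, the last also hit in 1 tail. Each sequence is the plus strand of GRCm38, 5′ to 3′, with the TTAA target in capitals, and the genes are on both strands.
Ptprc, intron 3, chr1:138125376-138125405, in 6 tumours and 0 tails: tgcatttaagttaTTAAaacactcatgttt
Sp140, intron 1, chr1:85604445-85604474, in 6 tumours and 0 tails: ccaagaaagatcaTTAAgagtaagttcaaa
Slamf6, intron 1, chr1:171921683-171921712, in 6 tumours and 0 tails: tctttgtttgtttTTAAgacaaaattcaca
Ikzf1, intron 3, chr11:11725439-11725468, in 4 tumours and 0 tails: tctaccctgctctTTAAagagtgtgtgctg
Basp1, intron 1, chr15:25397980-25398009, in 4 tumours and 0 tails: ctacctcacgtgcTTAAgatctacagatag
Gna13, intron 1, chr11:109364701-109364730, in 4 tumours and 0 tails: gatacagatgaacTTAAagaatgaacagac
Fas, intron 8, chr19:34322236-34322265, in 4 tumours and 0 tails: catctgtatttttTTAAagttatttttaag
Fas, intron 8, chr19:34321830-34321859, in 4 tumours and 0 tails: tgtgtaaatttttTTAAatgagatataatg
Notch1, intron 2, chr2:26500882-26500911, in 1 tumour and 6 tails: ctcacagacctgcTTAAttggcttcagtac
Notch1, intron 30, chr2:26464092-26464121, in 0 tumours and 4 tails: gcagtcctgcagtTTAAgggaccccggatg
The first Fas motif carried up to 94152 reads, in tumour 3, whose library had 5721832 kept reads against 136578 in the median tumour. In tumours the highest read numbers of other listed motifs were 20 in Sp140, 25 in Ikzf1, 108 in Basp1 and 111 in Ptprc. They were 436 in Slamf6, 1344 in Gna13 and 5104 at the second Fas motif. The assignment of Sp140 reads is uncertain, as described below. At both Fas motifs all 4 insertions lay on the same strand as the gene. Of 195142 distinct positions over the PB samples, 8385 were found in at least 2 of them. Whether some of these came from carry-over between libraries was not tested. Without these positions, 45 genes were higher in tumours and 57 higher in tails, against 68 and 74 with them.

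The genes with the smallest p among those higher in tumours were Ptprc, Tox, Ikzf1, Ikzf3, Basp1 and Mef2c, and among those higher in tails Notch1, Trp63 and Fat1. Of 3371 genes with at least 10 insertions over the 42 samples, 68 were higher in tumours (2.02% of those tested) and 74 higher in tails (2.20%) by edgeR's quasi-likelihood test at an adjusted p below 0.05. The split depended on the scaling. It was 131 and 46 with TMM factors, 27 and 11 with DESeq2's size factors, 20 and 32 with DESeq2 on the totals, 20 and 49 with limma voom, and 43 and 57 with the name form as a covariate. The median log2 difference of all genes tested was 0.20. It was 0.40 with TMM factors and with DESeq2's size factors, 0.07 with DESeq2 on the totals, -0.12 with limma voom and 0.18 with the name form, so that a list's median should be read against that of all genes under the same scaling. Of the 68 genes, 29 had no tail insertion, and 66 were hit in at least 10 tumours. All 74 genes higher in tails were also hit in a tumour, and 71 were hit in at least 6 tails. A tumour carried insertions in 13 to 64 of the 68 genes (median 48) and a tail in 3 to 19 (median 9), as a description of the genes called. Gene bodies higher in tails had a median length of 174 kb, against 95.4 kb for those higher in tumours and 106 kb for all genes tested.

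**Figure D1:**
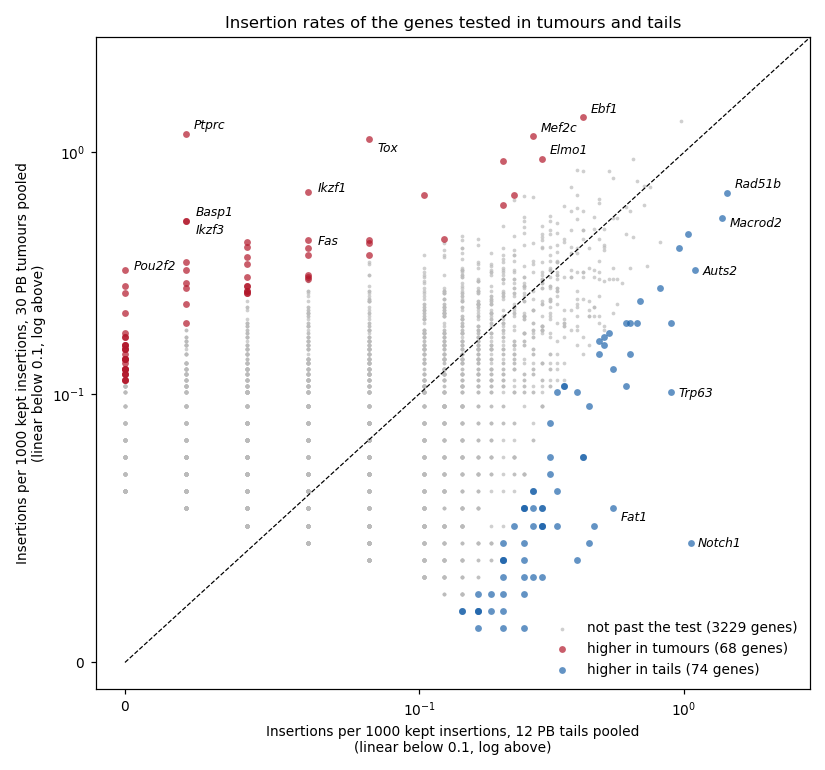
Pooled insertion rate of each of the 3371 genes tested in PB tails (horizontal axis) and PB tumours (vertical axis), as insertions per 1000 kept insertions on axes that are linear near 0 and logarithmic above, with the diagonal of equal rates dashed. The 68 genes higher in tumours (red) lie above the diagonal, with Ptprc farthest from it, and the 74 higher in tails (blue) lie below it, with Notch1 farthest.

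Transcription factors of the B lineage were the list with the most genes higher in tumours. Of its 30 members 19 were tested, and 6 were higher in tumours and none in tails (Ebf1, Ikzf1, Ikzf3, Mef2c, Pou2f2 and Ets1). Among all genes tested, 2.02% were called higher in tumours and 2.20% higher in tails, and every list is read against these shares. The lists were chosen with earlier results of these data known. The median log2 difference of the 19 was 1.54, against 0.20 for all genes, and ranged from 0.43 (limma voom) to 1.82 (TMM factors) over the scalings, with 3 to 8 members called. Ikzf1 (chr11:11685925-11772926), which encodes the zinc-finger factor Ikaros, had 108 insertions in 23 tumours and 3 in 2 tails. Its rate was 0 in the lowest tumour, 0.52 in the median and 1.77 in the highest, with a highest tail of 0.76. The log2 difference was 2.97 (SE 0.65, edgeR adjusted p = 4.8e-05), and 11 tumours lay above every tail. Ikzf3 (chr11:98464693-98546031), which encodes the related factor Aiolos, had 82 insertions in 23 tumours and 1 in a tail, a log2 difference of 3.53 (SE 0.88, edgeR adjusted p = 4.8e-05), and all 23 tumours lay above the tail. Mef2c (chr13:83504034-83667079), a MADS-box factor needed for B-cell proliferation, was hit in 29 of 30 tumours. Its rate reached from 0 to 4.14 in tumours (median 0.85) and from 0 to 1.39 in tails (median 0.26), so that the groups overlapped, with 6 tumours above every tail. It differed 4.32-fold (log2 1.92, SE 0.42, edgeR adjusted p = 0.00024). Ebf1 (chr11:44618100-45008096), which specifies the B lineage, had the most tumour insertions of the named genes, 219 in 25 tumours, and 20 in 11 tails, and differed 3.36-fold (log2 1.54, SE 0.36, edgeR adjusted p = 0.0013). Pou2f2, which encodes Oct-2, a factor at immunoglobulin promoters, had 51 insertions in 10 tumours and none in tails. It was 5.21-fold higher against a floor of 3 insertions over the tails (lower 95% counting limit 4.09, edgeR adjusted p = 0.00032). Ets1 was higher by 2.16 (SE 0.83, edgeR adjusted p = 0.032), and leaving out any of 6 libraries in turn ended its call, with an adjusted p of up to 0.077 without tail 4, and with the name form as a covariate it was 0.12.

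Single introns held much of the insertions in some of these genes. In Mef2c, intron 2 held 100 of 183 tumour insertions (54.6%, in 27 tumours), and in Ebf1 intron 6 held 152 of 219 (69.4%, in 22 tumours) and 8 of the 20 tail insertions. Ikzf1 had 36 insertions in intron 1 and 37 in intron 3, and the rest lay mostly in its other 5 introns. No comparison with the length of the introns was made.

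**Figure D2:**
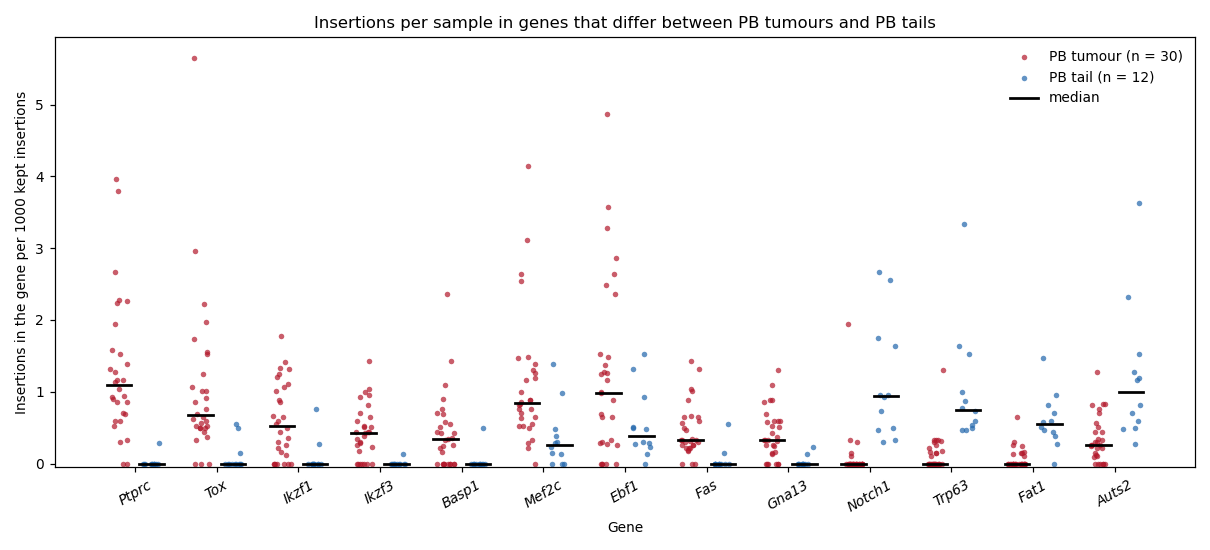
Insertions per 1000 kept insertions in each of 30 PB tumours and 12 PB tails for 13 genes, each point 1 mouse and each bar the median of the group. In Ptprc 28 tumours lie above every tail, whereas in Ebf1 and Fas the groups overlap widely. In Auts2 all 12 tails lie above the tumour median, and 4 tails lie above every tumour.

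Ptprc, the gene for the CD45 phosphatase that sets the activity of Src kinases in lymphocytes, gave the clearest difference of all genes higher in tumours. It lies at chr1:138062859-138175305 on the minus strand. The 30 tumours carried 188 insertions in 28 animals, whereas the 12 tails carried 1. Its rate was 0 in the lowest tumour, 1.09 in the median and 3.96 in the highest, and 0.29 in the single tail that was hit. All 28 tumours with an insertion lay above every tail. The pooled rates differed 57.7-fold (95% counting interval 10.2 to 2290), and the log2 difference was 4.74 (SE 0.72, edgeR adjusted p = 9.2e-13). Intron 2 held 116 of the 188 insertions (61.7%, in 26 tumours), 59 on the same strand as the gene and 57 on the other, and intron 3 held 30. Of the list of B-cell receptor genes with Ptprc, 9 of 21 members were tested. Higher in tumours were 2 of them (Ptprc and Lyn), against 2.02% of all genes tested, and none was higher in tails. The list's median log2 difference was 1.39 (0.31 to 1.53 over the scalings, with 1 or 2 members called). Lyn, a Src kinase of the receptor, had 47 insertions in 21 tumours and 3 in tails (log2 1.92, SE 0.74, edgeR adjusted p = 0.046), a call lost without any of 17 libraries, with an adjusted p of up to 0.10 without tail 2 and of 0.10 with the name form as a covariate.

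Other receptors and signalling proteins of lymphocytes were among the genes with the smallest p. Slamf6 and Slamf1, SLAM family receptors on chromosome 1, had 55 insertions in 18 tumours and 51 in 14 tumours, with 1 tail insertion each. Slamf6 differed 16.9-fold (95% counting interval 2.90 to 678, edgeR adjusted p = 0.0019), and 49 of its 55 insertions lay in intron 1. Slamf1 differed by 2.97 on the log2 scale (SE 0.96, edgeR adjusted p = 0.0025), but tumour 10 alone held 23 of its insertions, and without that tumour the adjusted p was 0.054. Tec, a kinase that acts below the antigen receptor, had 64 insertions in 20 tumours and 2 in tails (log2 2.68, SE 0.78, edgeR adjusted p = 0.0025). Rftn1, which encodes a lipid raft protein of B cells, had 54 in 21 tumours and 2 in tails (log2 2.47, SE 0.80, edgeR adjusted p = 0.0087). Cd74, the invariant chain of MHC class II, had 22 insertions in 11 tumours and none in tails, and was called as well. It falls outside the rule for named genes and was chosen after its values were seen.

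Of 21 genes of Gna13 signalling, homing and adhesion 11 were tested. Higher in tumours were 3 of them (Gna13, Dock2 and Elmo1), against 2.02% of all genes tested, none was higher in tails and 8 did not pass. The list's median log2 difference was 1.30 (0.36 to 1.59 over the scalings, with 3 to 5 members called). Gna13 (chr11:109362794-109401369), the G protein subunit that holds germinal centre B cells in place, had 67 insertions in 24 tumours and 2 in tails. The difference was 10.3-fold (95% counting interval 2.74 to 86.6; log2 2.75, SE 0.78, edgeR adjusted p = 0.0016), with 21 tumours above every tail. Intron 2 held 48 of the 67 insertions and intron 1 held 16. Elmo1 and Dock2, partners in an exchange factor for Rac, differed 3.24-fold (edgeR adjusted p = 0.0049) and 5.06-fold (edgeR adjusted p = 0.014). Rap1a, a small GTPase that activates integrins, had 58 insertions in 24 tumours and 2 in tails (log2 2.55, SE 0.80, edgeR adjusted p = 0.0057). Apbb1ip, whose product RIAM binds Rap1, had 34 insertions in 18 tumours and none in tails. It was 3.48-fold higher against the floor (lower 95% counting limit 2.68, edgeR adjusted p = 0.0032).

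Fas, the death receptor that removes activated B cells, was hit in 27 of 30 tumours and 2 of 12 tails. The 68 tumour insertions gave rates of 0 to 1.43 (median 0.33), against a highest tail of 0.55, and 10 tumours lay above every tail. The pooled difference was 6.95-fold (95% counting interval 2.28 to 34.5; log2 2.39, SE 0.70, edgeR adjusted p = 0.0048). It was the 1 gene called among the 6 tested of 18 genes of death receptors, apoptosis and p53, whose median log2 difference was 0.56 (0.003 to 0.77 over the scalings). The insertions lay at both ends of the gene (chr19:34290659-34327770, plus strand, 8 introns). Intron 8, the last, held 37 of 68 (54.4%) in 24 tumours, with 36 on the same strand as the gene and 1 on the other, and a median of 336 reads. Intron 7 held 11 in 8 tumours, with 0 on the same strand and 11 on the other, and a median of 164 reads. The 11 and 9 insertions of introns 1 and 2 had medians of 10 and 5 reads and lay on both strands, and introns 3 to 6 held none. Of the 3 tail insertions, 2 lay in intron 8 on the strand of the gene, and their median was 8 reads. This split by intron was seen in the data and has no test. Strand is that of the deposited table, whose relation to the direction of the transposon is not given in the sources used here.

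**Figure D3:**
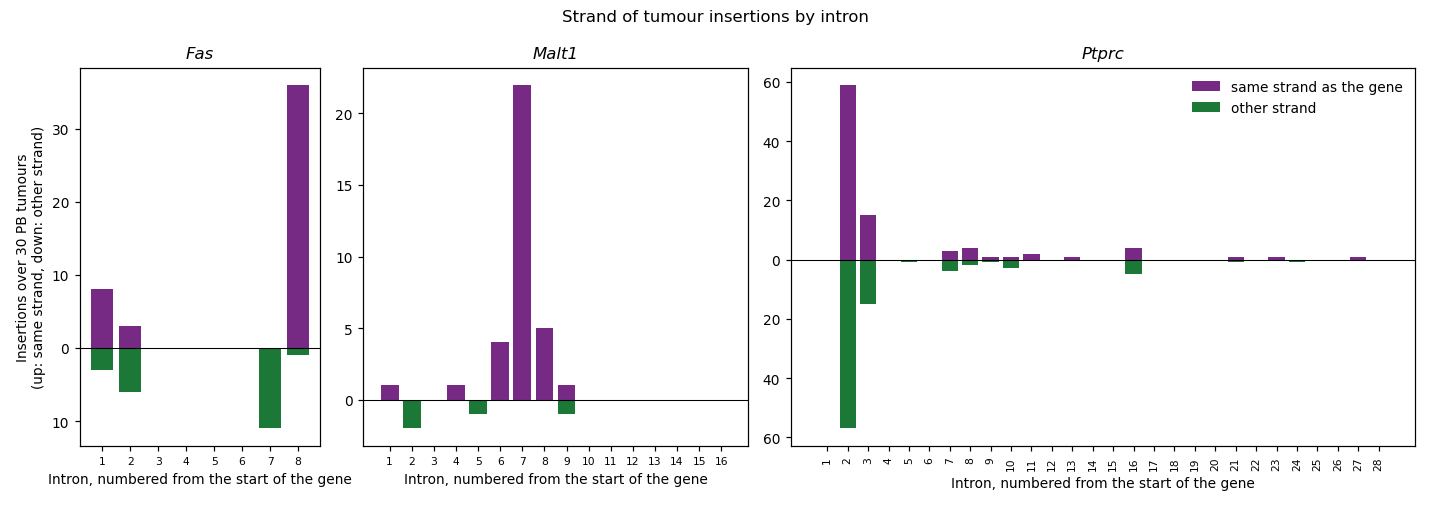
Tumour insertions of Fas, Malt1 and Ptprc by intron (horizontal axis, in the order of the gene), counted upwards where they lie on the same strand as the gene and downwards where they lie on the other strand. In Fas intron 8 points up with 36 insertions and intron 7 down with 11, in Malt1 introns 6 to 8 point up, and in Ptprc intron 2 has 59 up and 57 down.

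The test of strand over tumours called no gene of 1070 with at least 20 tumour insertions (0% of those tested; edgeR with the tumour as a block). In simulated data it found 25 of 50 genes with a 4-fold bias to either strand, so a bias of this size can be missed. At an unadjusted p below 0.05 there were 9 on the strand of the gene and 13 on the other. A test on square roots with limma called 3, which were Malt1, Rel and Tmem131. These genes were chosen after their values were seen. Malt1, the paracaspase that carries antigen receptor signals to NF-kB, had 34 insertions on its own strand and 5 on the other (edgeR adjusted p = 0.053), and 16 tumours had more on its own strand and 1 had fewer. All 31 tumour insertions in introns 6 to 8 of Malt1 were on its own strand, 22 of them in intron 7 of 14 tumours, and so were the 3 tail insertions of intron 7. Rel, an NF-kB subunit, had 31 on its own strand and 7 on the other (edgeR adjusted p = 0.39), and Tmem131 had 32 and 68 (edgeR adjusted p = 0.61). For Fas, 17 tumours had more insertions on its own strand and 3 had fewer (unadjusted p = 0.0065, edgeR adjusted p = 1.0). Over all insertions inside genes, the share on the strand of the gene was 48.3 ± 1.64% in tumours (SD, n = 30) and 49.3 ± 1.14% in tails (SD, n = 12).

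In the chromatin, RNA-binding and PI3K lists 1 gene each was called, of 23, 14 and 14 tested, which is read against the 2.02% of all genes called in this direction and is no result about the lists. Among 30 chromatin regulators 23 were tested, and Kmt2c, a histone H3 lysine methyltransferase, was the 1 called, with 63 insertions in 21 tumours and 3 in tails (log2 2.28, SE 0.71, edgeR adjusted p = 0.0092). The list's median log2 difference was 0.61 (0.11 to 0.84 over the scalings). Of the RNA-binding factors 14 of 18 were tested, with a median log2 difference of 0.69. Cpsf6, a factor of mRNA 3′ end processing, was called, with 18 insertions in 13 tumours and none in tails. It was 1.84-fold higher against the floor (lower 95% counting limit 1.35, edgeR adjusted p = 0.046). Of the PI3K, mTOR and Ras genes 14 of 21 were tested and Nf1, a Ras GTPase-activating protein, was called (95 insertions in 28 tumours, 10 in 6 tails, log2 1.46, SE 0.49, edgeR adjusted p = 0.038), with a median of 0.34, which stood 0.07 to 0.22 above that of all genes over the scalings. The Cpsf6 call was lost without any of 20 libraries and the Nf1 call without any of 8, with adjusted p up to 0.083 without tail 4 and 0.10 without tail 2. With the name form as a covariate neither passed (adjusted p = 0.084 for Cpsf6 and 0.055 for Nf1, edgeR). Genes that lie within Nf1 introns, the Evi2 genes, share its insertions.

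Tox led a list of T-lineage genes in which no other member was called. Of 18 members 7 were tested, with a median log2 difference of 0.51 (0.06 to 0.82 over the scalings). Tox, an HMG-box factor of developing T cells, lies at chr4:6686353-6991557 and had 179 insertions in 27 tumours and 4 in 3 tails. Its rate reached 5.65 in the highest tumour, with a median of 0.67, and 0.55 in the highest tail. The difference was 13.7-fold (log2 3.38, SE 0.55, edgeR adjusted p = 9.2e-09), and intron 2 held 135 of the insertions (75.4%). The 12 myeloid genes together had 15 tumour and 4 tail insertions, and none had enough to be tested.

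The remaining genes with the smallest p had roles outside these lists. Basp1, a membrane protein known from growth cones, had 82 insertions, all in intron 1, in 20 tumours and 1 in a tail (log2 3.51, SE 0.88, edgeR adjusted p = 5.2e-05). Erp44, a chaperone of the endoplasmic reticulum, had 105 in 26 tumours and 5 in 5 tails (log2 2.39, SE 0.58, edgeR adjusted p = 0.00071). Zcchc7, a partner of the RNA exosome that lies beside Pax5, had 144 in 26 tumours and 10 in 9 tails (log2 1.95, SE 0.46, edgeR adjusted p = 0.001), and 111 of the 144 lay in intron 2. Sp140, a nuclear body protein of lymphoid cells, had 44 in 23 tumours and none in tails, 4.50-fold higher against the floor (lower 95% counting limit 3.51, edgeR adjusted p = 0.00087). It overlaps Sp110 and has near-identical neighbours, so that the assignment of its reads is uncertain. Fbxo11, an F-box protein that targets Bcl6 for degradation, had 45 in 18 tumours and 1 in a tail (log2 2.71, SE 0.98, edgeR adjusted p = 0.0085), and overlaps Msh6. St8sia4, a polysialyltransferase, had 43 in 22 tumours and 1 in a tail (log2 2.70, SE 0.99, edgeR adjusted p = 0.0092). Pced1b and Dennd5b, with 41 insertions in 17 tumours and 28 in 16 tumours, had none in tails. Against the floor they were 4.19-fold and 2.86-fold higher (lower 95% counting limits 3.26 and 2.18).

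Several gene groups tied to lymphoma or to insertional mutagenesis in other screens contained no called gene. In simulated data the test found 1 of 100 genes raised 4-fold, and 30 of 100 among genes with at least 30 insertions. The lack of a call therefore says little about these groups. The NF-kB list had 10 of 22 members tested, none past the threshold in either direction, and a median log2 difference of 0.86 (0.06 to 1.05 over the scalings), and with TMM factors 1 of them was called. Cytokine receptor, JAK and STAT genes (6 of 15 tested) had a median of 1.13 (0.20 to 1.29) and the classic retroviral integration genes (5 of 16 tested) one of 0.41, which stood 0.02 to 0.22 above that of all genes over the scalings. Of 4 loci known as hotspots of PB or SB, the 2 tested (Sfi1 and Hjurp) were not called. Blm, the helicase gene named by the study, had 7 insertions in 7 tumours and none in tails, which was too few to be tested. Of the recombination repair genes with Blm, 4 of 15 were tested, and Rad51b was the 1 called, higher in tails.

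**Figure D4:**
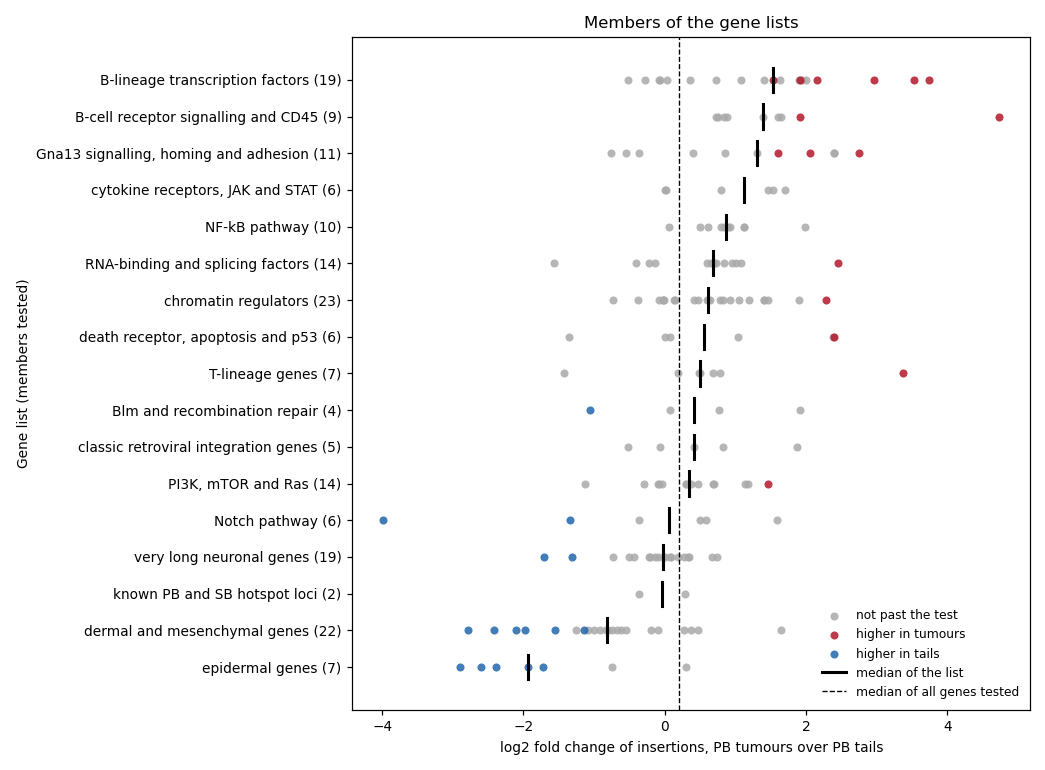
Log2 difference in insertions (tumours over tails) of the tested members of each gene list, each point 1 gene and each bar the median of the list, with the median of all 3371 genes dashed. B-lineage factors have a median of 1.54 and epidermal genes one of -1.94.

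Notch1 and several genes of the epidermis were higher in tails. Notch1, a receptor that controls keratinocyte differentiation as well as T-cell fate, was the strongest. At chr2:26457902-26503822, it had 51 insertions in all 12 tails and 7 in 5 tumours. Its rate was 0.30 in the lowest tail, 0.94 in the median and 2.67 in the highest, and 0 in the median tumour and 1.95 in the highest. Every tail lay above the tumour median and 2 lay above every tumour. The rate was 23.8-fold higher in tails (log2 -3.98, SE 0.50, edgeR adjusted p = 1.5e-16). Intron 2 held 21 of the 51 tail insertions, in 11 tails, and intron 30 held 8. Of the Notch pathway, 6 of 15 members were tested. Notch1 and the coactivator gene Maml3 were higher in tails, against 2.20% of all genes tested. The list's median log2 difference was 0.07 (-0.13 to 0.03 relative to all genes over the scalings, with 1 or 2 members called). The Maml3 call (log2 -1.34, SE 0.48, edgeR adjusted p = 0.048) was lost without any of 22 libraries, with an adjusted p of up to 0.18 without tail 4.

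Trp63, which encodes the p63 factor of epidermal stem cells, was hit in all 12 tails (43 insertions) and 13 tumours (16 insertions). Its rates were 0.46 to 3.34 in tails (median 0.75) and 0 to 1.30 in tumours (median 0). The log2 difference was -2.90 (SE 0.45, edgeR adjusted p = 1.8e-09), and introns 4 and 3 held 22 and 14 of the tail insertions. Tprg, the gene beside it on chromosome 16, differed by -2.71 (SE 0.62, edgeR adjusted p = 2.9e-05). Of the 26 epidermal genes 7 were tested. Higher in tails were 5 of them (Trp63, Dsp, Dsc3, Egfr and Fgfr2), against 2.20% of all genes tested, and none was higher in tumours. The list's median log2 difference was -1.94 (-1.94 to -1.21 over the scalings). Fewer of the 5 passed otherwise: 4 with TMM factors and with limma voom, 3 with the name form as a covariate, 2 with DESeq2 on the totals and 1 with DESeq2's size factors. The summed rate of the whole list was 1.47 to 5.25 in tails (median 2.83) and 0 to 1.95 in tumours (median 0.513). Dsp, the desmoplakin of cell junctions, had 10 insertions in 6 tails and 2 in tumours (log2 -2.60, SE 0.83, edgeR adjusted p = 0.0014). The growth factor receptor genes Fgfr2 and Egfr differed by -2.38 (SE 0.79, edgeR adjusted p = 0.004) and -1.73 (SE 0.53, edgeR adjusted p = 0.012), the latter with an adjusted p of 0.057 without tail 6 and 0.055 with the name form as a covariate. Dsc3, a desmocollin, differed by -1.94 (SE 0.82, edgeR adjusted p = 0.046), a call lost without any of 19 libraries, with an adjusted p of up to 0.14 without tail 4 and of 0.13 with the name form as a covariate. Outside the list, Grhl2, an epithelial transcription factor, had 21 insertions in 7 tails and 7 in tumours (log2 -2.67, SE 0.59, edgeR adjusted p = 2e-05).

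Of 33 dermal and mesenchymal genes 22 were tested, 6 were higher in tails, against 2.20% of all genes tested, and none in tumours. With TMM factors 5 were higher in tails and 1 in tumours, and those higher in tails numbered 5 with limma voom, 4 with the name form as a covariate, 4 with DESeq2 on the totals and 1 with DESeq2's size factors. Their median log2 difference was -0.81 (-0.86 to -0.58 over the scalings), and their summed rates overlapped (4.17 to 8.85 in tails, 2.23 to 10.6 in tumours). The 6 were Fat1, Col5a2, Gli3, Gli2, Nfib and Trps1. Fat1, an atypical cadherin, had 26 insertions in 11 tails and 9 in 9 tumours (log2 -2.79, SE 0.55, edgeR adjusted p = 1.8e-06), and 4 tails lay above every tumour. Gli3 and Gli2, effectors of Hedgehog signalling, differed by -2.11 (SE 0.55, edgeR adjusted p = 0.0012) and -1.98 (SE 0.67, edgeR adjusted p = 0.012), the latter with an adjusted p of 0.064 without tail 12 and 0.054 with the name form as a covariate. Col5a2, a fibrillar collagen gene, differed by -2.42 (SE 0.73, edgeR adjusted p = 0.0015) and Nfib, a nuclear factor of hair follicle and lung, by -1.55 (SE 0.44, edgeR adjusted p = 0.0087). Trps1 (log2 -1.14, SE 0.36, edgeR adjusted p = 0.029) lost its call without any of 5 libraries, with an adjusted p of up to 0.076 without tail 8 and of 0.053 with the name form as a covariate. Ptpn14 and Frmd6, both tied to Hippo signalling, had 22 insertions in 10 tails and 20 in 10 tails, against 8 and 12 in tumours (log2 -2.66, SE 0.57, edgeR adjusted p = 1.9e-05, and log2 -2.14, SE 0.55, edgeR adjusted p = 0.001).

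Very long genes with neuronal roles were tested in 19 of 20 cases, and 2 were higher in tails, Auts2 and Macrod2, with none higher in tumours. This count is read against the 2.20% of all genes called in this direction and is no result about the list. The median log2 difference of the list was -0.02, which stood 0.22 below that of all genes (-0.22 to 0.07 relative to all genes over the scalings). Auts2, a nuclear regulator of over 1 Mb on chromosome 5, had 53 insertions in all 12 tails and 51 in 24 tumours. Its rate was 0.27 to 3.64 in tails (median 0.99) and 0 to 1.28 in tumours (median 0.26), a 3.39-fold difference (log2 -1.71, SE 0.36, edgeR adjusted p = 0.00014). Macrod2, an ADP-ribose hydrolase gene, differed by -1.31 (SE 0.31, edgeR adjusted p = 0.0018). Rad51b, a gene of recombination repair, had 70 insertions in 11 tails and 107 in 28 tumours (log2 -1.06, SE 0.30, edgeR adjusted p = 0.013), with an adjusted p of 0.083 without tail 4. The other genes of smallest p higher in tails were Aopep, Mcc, Ctbp2, Rbfox2 and Mir99ahg, with log2 differences of -2.05, -2.24, -2.84, -2.46 and -1.91. Aopep overlaps Fancc and the Mir23b cluster, and Ctbp2, a transcriptional corepressor, rested on 12 insertions in 6 tails and 2 in tumours.

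The reads carried by a gene's insertions gave a second measure, since a high read number marks an insertion in many cells or one that amplified well. By limma on log2(RPM + 1), where RPM is reads scaled to a common library total, 13 genes were higher in tumours (0.386% of the genes tested) and 37 higher in tails (1.10%). Of the 68 and 74 genes called by insertions, 11 and 33 passed here as well. The 2 measures come from the same insertions and are not independent. A sample with no insertion in a gene has only the added 1 RPM, so the size of the log2 differences by reads depends on that constant. Fas took 1.31% of the reads of the median tumour and 14.2% of the highest, against 0 in the median tail and 0.036% in the highest (log2 10.29, SE 0.97, limma adjusted p = 8.2e-23). Ptprc took 0.0525% of the reads of the median tumour and 1.71% of the highest, and Gna13 0.0719% and 11.0%, with 0 in the median tail for both (log2 8.53, SE 1.15, limma adjusted p = 2.4e-10, and 7.92, SE 1.13, 2e-09).

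The NF-kB subunit gene Rel was called by reads but not by insertions. It had 38 insertions in 15 tumours and 2 in tails (log2 1.99, SE 0.84, edgeR adjusted p = 0.056), and by reads a log2 difference of 4.77 (SE 1.27, limma adjusted p = 0.020). It was chosen after its values were seen. In tails, Notch1, Trp63 and Fat1 led by reads as well, with log2 differences of -8.74, -6.97 and -6.41.

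**Figure D5:**
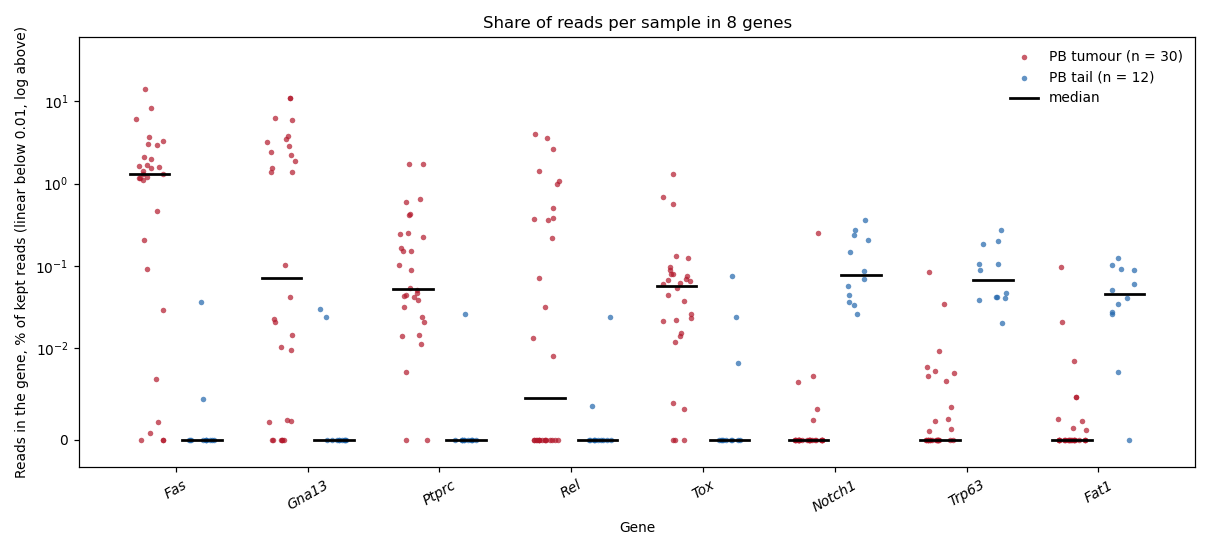
Share of a sample's kept reads (percent, linear below 0.01 and logarithmic above) carried by the insertions of 8 genes, each point 1 of 30 tumours or 12 tails and each bar the median of the group. Fas and Gna13 reach 14.2% and 11.0% in single tumours, and Notch1 is higher in tails.

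Within tumours, each insertion was also ranked by its reads among all insertions of its library, which takes out the depth. Of 2055 genes hit in at least 10 tumours, 3 were called with a mean percentile above 50 (0.146%) and none with one below. In simulated data this test found 8 of 50 genes shifted in either direction, so it misses many. Rel stood at 84.1 ± 14.2 (SD, 15 tumours, limma adjusted p = 0.00048), Gna13 at 71.1 ± 26.8 (SD, 24 tumours, limma adjusted p = 0.037) and Fas at 70.2 ± 29.2 (SD, 27 tumours, limma adjusted p = 0.037). Ptprc, with the clearest difference in insertions, exceeded 50 by 7.63 percentile points (SE 4.83, limma adjusted p = 0.80). Rel, Gna13 and Fas were each hit in 2 tails, with mean percentiles of 42.6, 80.7 and 31.2 there. A high rank of Gna13 was thus not seen in tumours alone, and tails were not tested. Among the 10 most covered insertions of each tumour, 300 in all, 236 lay inside genes. Fas was among them in 13 tumours and held the most covered insertion in 1, and Gna13 in 11 and 5. Ebf1 followed in 6 tumours and Rel in 4. In none of the 12 tails did the 10 most covered insertions include one of these genes, and 65 of those 120 insertions lay inside genes.

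The genes called kept their direction in both name forms. All 68 and all 74 had the same sign within the joined names, within the separated names and with the form as a covariate, where 39 and 50 still passed. The calls had been made on these same samples, so this is no independent check. The form itself, tested across the 3371 genes in the same model, called no gene (edgeR, 201 at an unadjusted p below 0.05). Among tumours of different sites, Ptprc was hit in 15 of 15 mesenteric, 4 of 6 splenic and 9 of 9 other tumours, with median rates of 1.27, 0.73 and 0.89. Fas was hit in 15 of 15, 4 of 6 and 8 of 9, and Gna13 in 13 of 15, 3 of 6 and 8 of 9. Sites were not tested against each other.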

How the data were processed

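Insertions of 42 PB samples were analysed, each from a mouse of its own. Genomic DNA was amplified by splinkerette PCR (QiSeq) and sequenced as 75 bp paired-end MiSeq reads. The authors deposited a table of 385883 lines, 237480 of them of PB samples, each with the position (mm10, which is GRCm38), strand and raw count of reads of an insertion. The lowest count was 2. The aligner and insertion caller are not given in the sources used here. The table's normalized coverage (1 per-sample column), deposited by the authors, was not used.

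Rows were joined to samples through the sample titles. Of 230071 autosomal PB lines, 227898 lay on a TTAA, 110 were moved to one within 5 bp, and 2063 had none in reach and were left out. Insertions were counted once per sample and position, which left 156899 in tumours and 48124 in tails. Chromosome 14, the densest in insertions, was left out as the donor chromosome. Genes were RefSeq gene bodies of GRCm38 (23986 genes, 22541 with a TTAA), and overlapping genes share insertions. Kept reads per sample were 60551 to 5721832 in tumours (median 136578) and 71232 to 193314 in tails (median 122874). Without molecular identifiers, PCR copies cannot be told from separate molecules, so intervals and floors cover counting error only.

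Insertions were tested with edgeR's quasi-likelihood test on genes with 10 or more insertions, the library size being the number kept. Reads were tested with limma-trend with a pseudocount of 1 RPM (reads scaled to a common total), strand with edgeR and a block for the tumour (at least 20 insertions), and read percentiles with limma (at least 10 tumours hit). Fold changes against no tail insertion used a floor of 3 insertions over the tails, which leaves out the counting error of the tumour insertions. P-values were adjusted by Benjamini-Hochberg over all genes tested, with a threshold of 0.05. Log2 fold changes of edgeR are shrunk by its prior count and the SE is that of the unshrunk estimate. Samples are numbered within a group in the order of their records.

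The members and gene lists were chosen with earlier results of these data known. The 18 lists hold 355 genes. Genes named are the 25 smallest p of those higher in tumours, the 15 smallest of those higher in tails, Blm, and each list gene that passed. Others are said to be chosen after their values were seen. Some genes are not reported here. Tests were tested on simulated data. For 4-fold changes in the insertion test over 3371 genes, 1 of 100 raised and 40 of 100 lowered genes were found, with 1 false call, and among genes with at least 30 insertions 30 and 81 of 100, with 8 false calls. The strand test found 25 of 50 genes in each direction, with 1 false call, and the percentile test 8 of 50, with 2 false calls. R 4.3.3 was used with edgeR 4.0.16, limma 3.58.1 and DESeq2 1.42.0, and Python 3.11.15 with numpy 2.4.6, pandas 2.3.3 and scipy 1.17.1.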

Additional observations from a re-analysis of the deposited data

Results flagged for a closer look

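On chromosome 14, which the comparison left out as the donor chromosome, 1 gene was higher in tumours and 3 were higher in tails when its insertions were kept (174 of its genes tested). These insertions belong to no comparison above, which is why they are given here. The counts are read against the 2.02% and 2.20% called among the genes off chromosome 14, and are no result about the chromosome. The gene higher in tumours was Ints6, a subunit of the Integrator complex, with 46 insertions in 24 tumours and 1 in a tail (log2 difference 2.80, edgeR adjusted p = 0.0051). The 3 higher in tails were Kcnma1 (log2 -1.54, edgeR adjusted p = 0.0083), Enox1 (-1.37, 0.028) and Pcdh9 (-0.89, 0.028), the last with 376 insertions in all 30 tumours and 265 in all 12 tails. Chromosome 14 held 10.2 ± 4.04% of the insertions of a tumour (SD, n = 30; 5.03 to 19.9%) and 13.6 ± 2.22% of those of a tail (SD, n = 12; 8.99 to 16.7%), and the part of this difference in the genes called was not tested.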

How the results depend on the processing

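The number of genes called by insertions was 142. It was 38 with DESeq2's size factors, 52 with DESeq2 on the totals, 69 with limma voom, 6 with presence per sample and Fisher's exact test, 70 without a minimum of insertions, 29 within the joined names, 2 within the separated names and 4 among samples with the number 1 after the genotype in their names, where fewer samples entered. With TMM factors 131 rather than 68 genes were higher in tumours. Leaving out 1 sample at a time gave 111 to 166. With insertions of at least 10 reads, 47 of the 68 genes higher in tumours were still tested and 37 passed. Of the 74 higher in tails, 59 were tested and 36 passed. With insertions of at least 5 reads, 66 of each were tested and 51 of each passed. Genes called by reads numbered 50, and 93 with a pseudocount of 10, 363 with edgeR on reads, 136 with insertions of at least 10 reads, 89 without the trend and 45 to 66 with 1 sample left out. Strand called 0 genes, and 1 with a minimum of 30 insertions, 3 with limma on square roots, 1 with insertions of at least 10 reads and 1 with strand totals of genic insertions. Leaving out 1 tumour at a time was not run for strand. Read percentiles called 3 genes, and 231 with a gene's highest percentile, 1 when centred on genic insertions and 1 to 5 with 1 tumour left out. The sign turned for 3 genes, all with presence per sample (Ebf1 -0.10, Macrod2 0.0040 and Rad51b 0.056 as log2 differences), a measure that does not see several insertions in 1 sample. Of the other single-gene values, 863 kept sign and side of the threshold and 315 kept the sign only, and with 1 sample left out 2209 and 101 did. The cause was not tested for the other changes. The difference in genic share was 2.33 to 5.09 points over its settings, all past the threshold. No paired analysis was possible because each sample came from a different mouse and the labels carry no replicate numbers. At this depth a gene with fewer than 10 insertions over the samples was not tested.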
